A study of Mus musculus with 6 samples.

Results

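The 7 genes described here, called members, are interleukin-1 (IL-1) family genes and Il18bp, chosen by name, with no threshold on a measured value, of 54838 genes in the count tables. They are the cytokine genes Il1a, Il1b, Il36g, Il18 and Il33, the receptor antagonist gene Il1rn, and Il18bp, which encodes the soluble binding protein of IL-18. Il36g carries the older symbol Il1f9 in the annotation used. The RNA-seq libraries were made from neutrophils that had been isolated by flow cytometric sorting from the corneas of mice infected with PAO1, a Pseudomonas aeruginosa strain used widely in laboratories, at 24 h of infection. The cells came from Il1a-/- mice, which lack the gene of IL-1 alpha, in 3 libraries and from wild-type mice in 3 libraries. Both genotypes were infected, and no uninfected group was analysed here. The labels number biological replicates but give no strain, age, sex or number of pooled animals, so the p-values measure the spread between these libraries, which may be partly technical. In such bulk samples fewer transcribing cells and less RNA per cell cannot be told apart.

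IL-1 alpha and IL-1 beta bind and activate the same receptor, and the antagonist encoded by Il1rn occupies that receptor without triggering a signal. IL-1 beta is made as an inactive precursor that is cut by caspase-1 or by serine proteases of neutrophil granules, whereas the precursor of IL-1 alpha can already signal and is cut by calpain. IL-36 gamma, IL-18 and IL-33 act through receptors of their own that belong to the same family. IL-36 gamma is best known from keratinocytes and other barrier epithelia, and IL-33 is stored in the nuclei of epithelial and endothelial cells. During bacterial keratitis, IL-1 cytokines are known to drive the recruitment of neutrophils to the cornea.

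The libraries held 22855676 to 33626008 gene counts. Neutrophil markers were high in all of them: S100a8, a calprotectin subunit gene, was at 9113 to 10112 CPM (counts scaled to library size) in Il1a-/- and at 9520 to 11540 CPM in wild type. Of 12 T, B and NK cell markers, 8 had no count in any library. Markers of monocytes and macrophages, summed over 16 genes, were at 704 to 753 CPM in Il1a-/- and at 594 to 609 CPM in wild type, with no overlap and none of the 16 at 0 in all libraries. Most of that sum was Lyz2, at 334 ± 36 CPM in Il1a-/- and 293 ± 7.11 CPM in wild type, and Csf1r, at 206 ± 22 and 178 ± 12 CPM, which neutrophils can also express. Scarcer macrophage markers, picked after their values were seen, were further apart: C1qb was at 2.11 to 8.29 CPM in Il1a-/- and 0.740 to 1.26 CPM in wild type, Msr1 at 5.31 to 16.7 and 1.46 to 3.795 CPM, and F13a1 at 8.42 to 30.2 and 3.25 to 6.37 CPM. The 13 corneal epithelial markers summed to 34.3 to 142 CPM in Il1a-/- and to 28.7 to 167 CPM in wild type, with none at 0 in all libraries and 4 under 1 CPM. The 10 stromal markers summed to 12.7 to 46.6 CPM in Il1a-/- and 20.1 to 41.8 CPM in wild type, and the 9 endothelial markers to 32.9 to 46.3 CPM and 42.1 to 44.9 CPM. Nearly all of the endothelial sum was Pecam1, at 28.3 to 44.4 CPM in Il1a-/- and 37.4 to 43.1 CPM in wild type. Of the 9 endothelial markers, 7 had a mean under 1 CPM, so that sum rests mainly on a single gene. The 11 dendritic and Langerhans cell markers summed to 251 to 348 CPM in Il1a-/- and 205 to 293 CPM in wild type. Most of that sum was Cd74, at 196 to 242 CPM in Il1a-/- and 162 to 208 CPM in wild type. Among the 11, 5 had a mean under 1 CPM, and 1 of those had no count in any library. The sorted cells therefore carried small amounts of RNA with the markers of other cell types, whose part in the levels below was not tested.

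The 4 abundant members, Il1b, Il1rn, Il1a and Il36g, lie on chromosome 2 in separate clusters. Il1a and Il1b are neighbours on the minus strand with 54597 bases between them, whereas Il36g and Il1rn lie on the plus strand with 143284 bases between them. Their promoters, from 250 bases before to 50 bases after the start annotated by RefSeq (build GRCm38.p6), are shown because these starts are annotated for the abundant genes. For Il1rn the most upstream of 3 annotated starts is given, and counts per gene do not show which start was used. The windows are chr2:129309923-129310222 (minus strand) for Il1a, chr2:129371090-129371389 (minus strand) for Il1b, chr2:24336610-24336909 (plus strand) for Il1rn and chr2:24186226-24186525 (plus strand) for Il36g. Capitals mark matches, on either strand, to TATAAA (the TATA box), TGANTCA (an AP-1 site), GAGGAAG (a PU.1 site), TTGCNNAA (a C/EBP site) or the NF-kB consensus.
Il1a: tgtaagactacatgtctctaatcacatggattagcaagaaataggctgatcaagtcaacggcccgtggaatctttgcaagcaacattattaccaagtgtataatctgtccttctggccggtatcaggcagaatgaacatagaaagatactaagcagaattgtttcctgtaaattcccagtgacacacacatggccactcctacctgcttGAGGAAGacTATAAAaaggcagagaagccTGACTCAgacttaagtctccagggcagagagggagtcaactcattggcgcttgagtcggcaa
Il1b: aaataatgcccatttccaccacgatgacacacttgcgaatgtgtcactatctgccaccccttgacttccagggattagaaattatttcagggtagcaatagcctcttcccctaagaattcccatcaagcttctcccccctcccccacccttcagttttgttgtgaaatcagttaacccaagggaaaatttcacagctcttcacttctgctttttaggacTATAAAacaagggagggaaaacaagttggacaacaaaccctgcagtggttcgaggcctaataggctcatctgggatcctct
Il1rn: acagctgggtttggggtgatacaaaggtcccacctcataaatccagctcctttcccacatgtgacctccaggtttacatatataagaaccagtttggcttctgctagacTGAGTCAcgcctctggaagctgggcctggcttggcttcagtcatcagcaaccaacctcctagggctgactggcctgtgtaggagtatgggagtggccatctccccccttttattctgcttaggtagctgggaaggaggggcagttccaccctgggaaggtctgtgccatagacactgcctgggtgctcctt
Il36g: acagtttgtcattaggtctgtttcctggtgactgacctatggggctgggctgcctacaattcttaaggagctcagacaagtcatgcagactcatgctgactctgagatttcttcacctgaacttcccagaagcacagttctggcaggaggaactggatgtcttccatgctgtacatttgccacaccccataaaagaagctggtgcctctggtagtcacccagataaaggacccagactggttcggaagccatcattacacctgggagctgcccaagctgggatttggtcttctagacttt
Il1a and Il1b share a TATAAA on the coding strand, which begins 32 and 31 bases before the start, and 13.6% of 32851 such windows of the genome held that motif somewhere on either strand. The Il1a window also held a TGACTCA beginning 12 bases before the start and a GAGGAAG that begins 41 bases before it. In the Il1rn window printed, the single match was a TGAGTCA that begins 141 bases before the most upstream start. The window of the most downstream Il1rn start, not printed, held a TTTATA, the TATA motif on the other strand, from base 15 after that start. AP-1 matches were found in 7.81% of all windows and PU.1 matches in 13.6%. The Il36g window held none of the letters searched, and 0 of 10 windows of the 7 members held the NF-kB consensus, which 4.51% of all windows did. These matches describe the letters in a short window and do not show binding.

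Il1b had the highest level of the members in every library, and in each genotype it ranked among the 9 most abundant genes of the transcriptome per length. Levels of different genes are compared here as TPM, counts per exon length scaled to the same total in every library, and levels of one gene between libraries as CPM. In Il1a-/- neutrophils the mean order was Il1b at 26753 ± 2341 TPM, Il1rn at 8528 ± 259.8 TPM, Il36g at 2231 ± 253 TPM, Il18 at 29.1 ± 4.5 TPM, Il18bp at 8.23 ± 2.96 TPM, Il1a at 5.69 ± 1.58 TPM and Il33 at 1.23 ± 1.25 TPM (SD, n = 3). There the ranges of Il18bp and Il1a overlapped, and all other neighbours in the order were apart. In wild type it was Il1b at 28079 ± 2772 TPM, Il1rn at 8827 ± 767 TPM, Il1a at 8061 ± 2027 TPM, Il36g at 2030 ± 102 TPM, Il18 at 34.2 ± 9.0 TPM, Il18bp at 7.47 ± 1.90 TPM and Il33 at 1.06 ± 1.24 TPM (SD, n = 3). The ranges of Il1rn and Il1a overlapped in wild type, on this scale of union exon length, and the other neighbours did not. Reads in the exon that Il1a shares with an antisense gene are left out of these counts, and when they were added Il1a stood above Il1rn in wild type and above Il18bp in Il1a-/-.

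**Figure D1:**
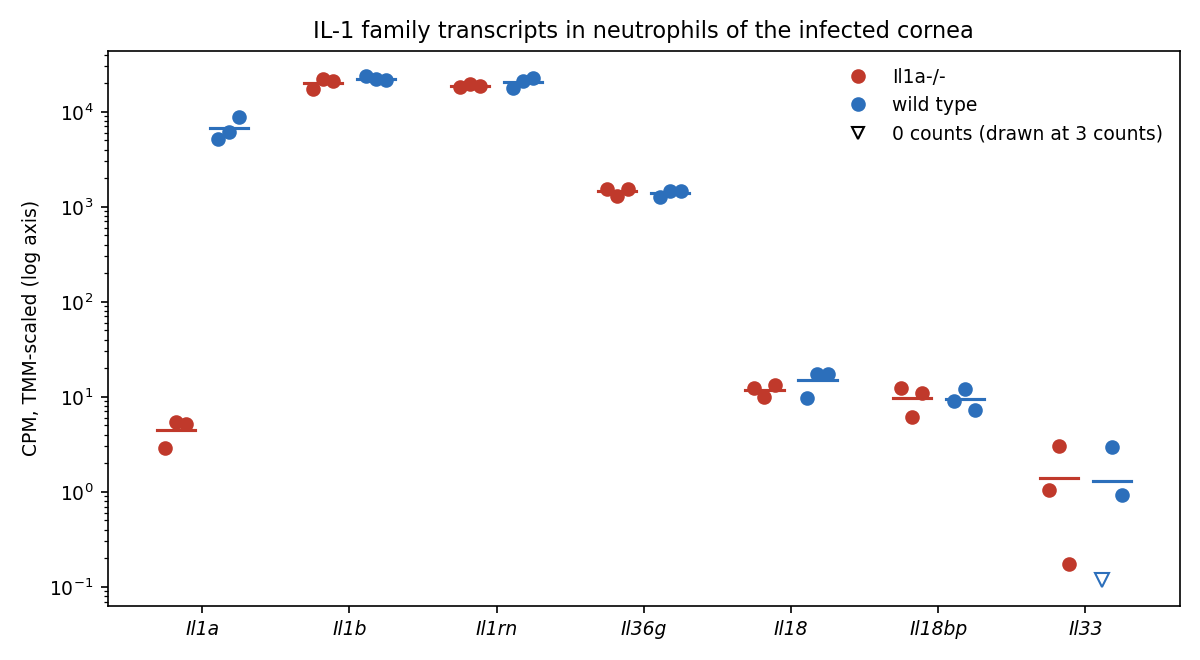
Level of each member in each library, as CPM on a log axis, for Il1a-/- (red) and wild type (blue), with a line at each group's mean. Il1a is at 2.89 to 5.37 CPM in Il1a-/- and 5116 to 8776 CPM in wild type, the other members lie at like levels in both genotypes, and Il33 has no count in 1 wild-type library.

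The ligand and antagonist transcripts made up a large part of the RNA. Together the 7 genes held 3.91%, 4.31% and 4.11% of all gene counts in the Il1a-/- libraries and 4.98%, 4.96% and 5.02% in the wild-type libraries. The wild-type totals include Il1a, the deleted gene, at 0.531%, 0.606% and 0.811% of all counts, so they do not compare the other members between genotypes. Per length, Il1b made up 71.1% ± 2.2 of the transcripts of 11 genes (the 7 members and 4 of the IL-36 and IL-38 group) in Il1a-/- and 59.6% ± 5.7 in wild type (SD, n = 3 each), where Il1a is present. Il1rn made up 22.7% ± 1.3 in Il1a-/- and 18.8% ± 1.7 in wild type, and Il36g 5.97% ± 1.00 and 4.31% ± 0.30. These shares sum to a whole, so they are not independent of the loss of Il1a.

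**Figure D2:**
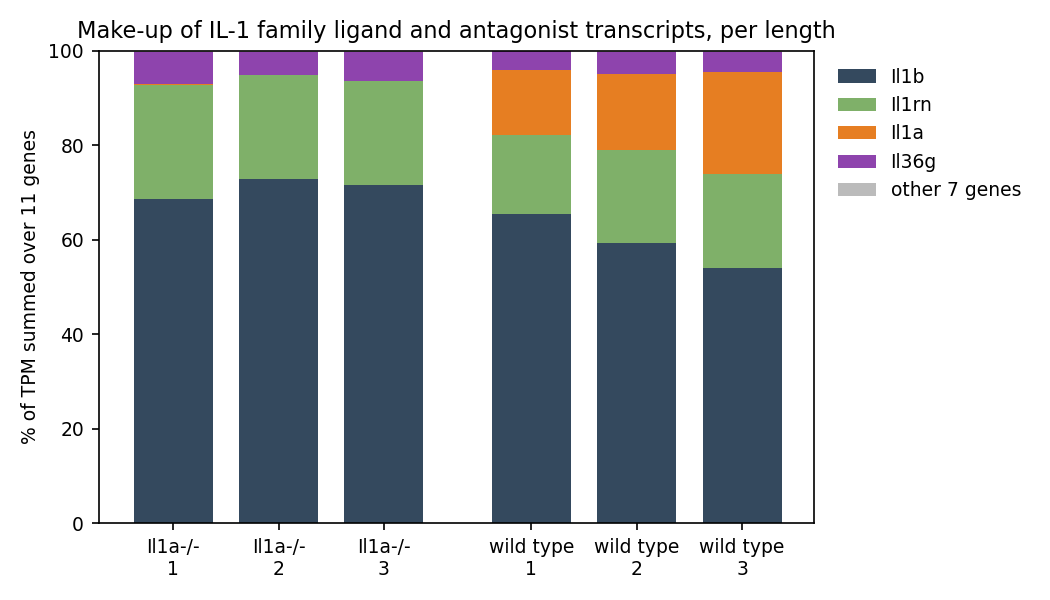
Share of each gene in the summed TPM of the 7 members and the 4 other IL-1 family ligand genes, by library, Il1a-/- left of wild type. Il1b is the largest share in every library, and the Il1a share runs from 13.6% to 21.5% in wild type and is under the width of a line in Il1a-/-.

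Il1a (ENSMUSG00000027399, chr2:129299610-129309972, minus strand; all gene positions are in GRCm38), the deleted gene, was transcribed at a high level in wild-type corneal neutrophils and was nearly absent in the knockout. It had 2.89, 5.37 and 5.15 CPM in the Il1a-/- libraries, against 5116, 6195 and 8776 CPM in wild type. Every Il1a-/- library was far below every wild-type library, and the wild-type libraries differed among themselves more than they did for Il1b. The log2 fold change, Il1a-/- over wild type, was -10.55 (95% interval -11.33 to -9.78, edgeR quasi-likelihood test, adjusted p = 5.3e-07), in the direction of the label in 6 of 6 libraries. This is the check of the knockout and not a further result.

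Most of the few reads counted for Il1a in the knockout, when the strand columns are summed, lay at the exon that Il1a shares with Gm14023, a noncoding transcript on the opposite strand. The overlap is 222 bases of exon 4 of 7 of Il1a (chr2:129306471-129306692, build GRCm38), all of it coding sequence and 11.2% of the exon length of the gene. Exon 4 is printed here in the sense of Il1a, from the GENCODE M21 transcript, with the shared bases in capitals.
Il1a exon 4: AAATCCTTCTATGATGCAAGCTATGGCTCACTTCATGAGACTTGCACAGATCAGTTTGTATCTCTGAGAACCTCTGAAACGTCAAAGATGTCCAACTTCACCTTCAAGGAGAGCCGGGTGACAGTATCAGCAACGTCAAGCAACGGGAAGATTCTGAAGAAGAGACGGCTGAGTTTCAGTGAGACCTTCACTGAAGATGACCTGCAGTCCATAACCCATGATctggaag
The deposited unstranded count leaves out reads that touch both genes, while the sum of the strand columns gives them to both. Of the Il1a reads in that sum, 65.5%, 63.3% and 71.6% were left out in the Il1a-/- libraries, against 22.3%, 22.4% and 22.4% in wild type. The sums were 267, 474 and 415 reads in Il1a-/-, against 175908, 248036 and 351455 in wild type. The kit does not mark strand, so remaining Il1a transcript and Gm14023 transcript cannot be told apart in those reads. Gm14023 itself was at 15.2, 19.1 and 26.5 CPM in Il1a-/- and at 139, 133 and 153 CPM in wild type, by unstranded counts that leave out 91.4% to 94.3% of its wild-type reads.

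Il1b (ENSMUSG00000027398, chr2:129364570-129371139, minus strand), which encodes IL-1 beta, was at 17562, 22197 and 20893 CPM in the Il1a-/- libraries, against 23803, 21960 and 21331 CPM in wild type. The groups overlapped, although the lowest library was an Il1a-/- one and the highest a wild-type one. The log2 fold change of -0.15 had a 95% interval from -0.40 to 0.11 (edgeR, adjusted p = 0.94), which leaves room for a level between 0.756 and 1.08 times that of wild type. An antisense gene, Il1bos, shares 25 exon bases with Il1b and was at 284 to 381 CPM in Il1a-/- and 339 to 459 CPM in wild type, and reads touching the shared bases were at most 0.949% of the Il1b reads.

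Il1rn (ENSMUSG00000026981, chr2:24336853-24351494, plus strand), the antagonist gene, had 18029, 19444 and 18525 CPM in Il1a-/- and 17745, 21053 and 22710 CPM in wild type. The Il1a-/- libraries lay inside the range of the wild-type ones. The log2 fold change was -0.14 (95% interval -0.39 to 0.12, edgeR, adjusted p = 0.94). A level in the knockout under 0.762 or over 1.09 times that of wild type is outside this interval. Il1rn has 6 annotated transcripts, and a count per gene does not separate those that encode the secreted antagonist from those that encode intracellular forms.

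Il36g (ENSMUSG00000044103, chr2:24186476-24193568, plus strand), the gene of IL-36 gamma, was the remaining abundant ligand, with 1521, 1290 and 1545 CPM in Il1a-/- and 1259, 1470 and 1478 CPM in wild type. It ranked 57 in Il1a-/- and 65 in wild type among all genes per length. The groups overlapped, and the log2 fold change of 0.05 had a 95% interval from -0.21 to 0.31 (edgeR, adjusted p = 0.99). Since keratinocytes are its best known source, the summed epithelial markers of each library are given beside it. They were at 34.3, 142 and 48.1 CPM in the Il1a-/- libraries, in the order of the Il36g values above, against 28.7, 167 and 112.5 CPM in wild type. Among the Il1a-/- libraries Il36g was lowest where these markers were highest, and among the wild-type libraries it was lowest where they were lowest. The part of epithelial RNA in the Il36g level was not tested.

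The other genes of the IL-36 group were scarce or near the detection limit. Il36a, a further agonist of the IL-36 receptor, was at 17.0 ± 4.0 CPM in Il1a-/- and 19.4 ± 7.4 CPM in wild type (SD, n = 3 each), and per length Il36g exceeded it 46.8 ± 6.9-fold and 41.8 ± 12.2-fold. Il36rn, which encodes the antagonist of the IL-36 receptor, had 45 counts in all in the Il1a-/- libraries and 43 in the wild-type libraries, against 125598 and 125276 counts of Il36g. Il36b, an agonist gene, had 5 counts in Il1a-/- and 15 in wild type, and Il1f10, which encodes IL-38, had 5 and 2. So the agonist Il36g was abundant where its antagonist gene had 33 counts or fewer in every library. Of these 4 genes Il36a and Il36rn were tested, and 0 were called by edgeR, 0 had an unadjusted p under 0.05, and 0 were called by DESeq2 or limma-voom. Over all 11924 tested genes edgeR called 0.101%, and 714 had an unadjusted p under 0.05, so this absence says little about these genes. Il1rl2, the gene of the IL-36 receptor, was at 4.60 ± 3.87 CPM in Il1a-/- and 5.77 ± 1.36 CPM in wild type.

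Il18 and its binding protein were transcribed at low levels. Il18 (ENSMUSG00000039217, chr9:50554827-50581840, plus strand) was at 12.2, 9.90 and 13.4 CPM in Il1a-/-, against 9.81, 17.4 and 17.4 CPM in wild type. Both groups included a library just under 10 CPM, and the groups overlapped (log2 fold change -0.33, 95% interval -0.87 to 0.20, edgeR, adjusted p = 0.94). Il18bp (ENSMUSG00000070427, chr7:102014885-102018690, minus strand) was at 12.4, 6.11 and 10.8 CPM in Il1a-/- and 8.98, 12.1 and 7.27 CPM in wild type. Its log2 fold change was 0.05 (95% interval -0.59 to 0.69, edgeR, adjusted p = 0.99), and the direction turned when Il1a-/- replicate 1 or 3 or wild-type replicate 1 or 3 was left out, to -0.17 at the lowest. The 3′ end of Il18bp shares 80 bases with Numa1 on the opposite strand, and at most 3.42% of its reads were affected. The summed macrophage markers are given above, and the part of macrophages or other cells in these low levels was not tested.

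Il33 (ENSMUSG00000024810, chr19:29925114-29960718, plus strand), the gene of a nuclear alarmin, was close to absent. It had 33, 98 and 4 counts in the Il1a-/- libraries, which is 1.04, 3.02 and 0.175 CPM, against 0, 93 and 29 counts in wild type, or 0, 2.99 and 0.933 CPM. A count of 0 in the wild-type library allows up to 0.117 CPM (3 counts, counting error only). One library of each genotype stood above the rest, and these were the libraries with the most epithelial marker RNA of their genotype, at 142 CPM in Il1a-/- and 167 CPM in wild type. The library without a count had the fewest, at 28.7 CPM. The order did not hold throughout. Il1a-/- replicate 1 had fewer such markers than replicate 3, at 34.3 against 48.1 CPM, but more Il33. The part of epithelial RNA in the Il33 level was not tested. With such spread the log2 fold change of 0.12 had a 95% interval from -2.78 to 3.01 (edgeR, adjusted p = 0.99), and its sign turned without Il1a-/- replicate 2 (-1.09) and without wild-type replicate 1 (-0.47) or 3 (-0.08).

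**Figure D3:**
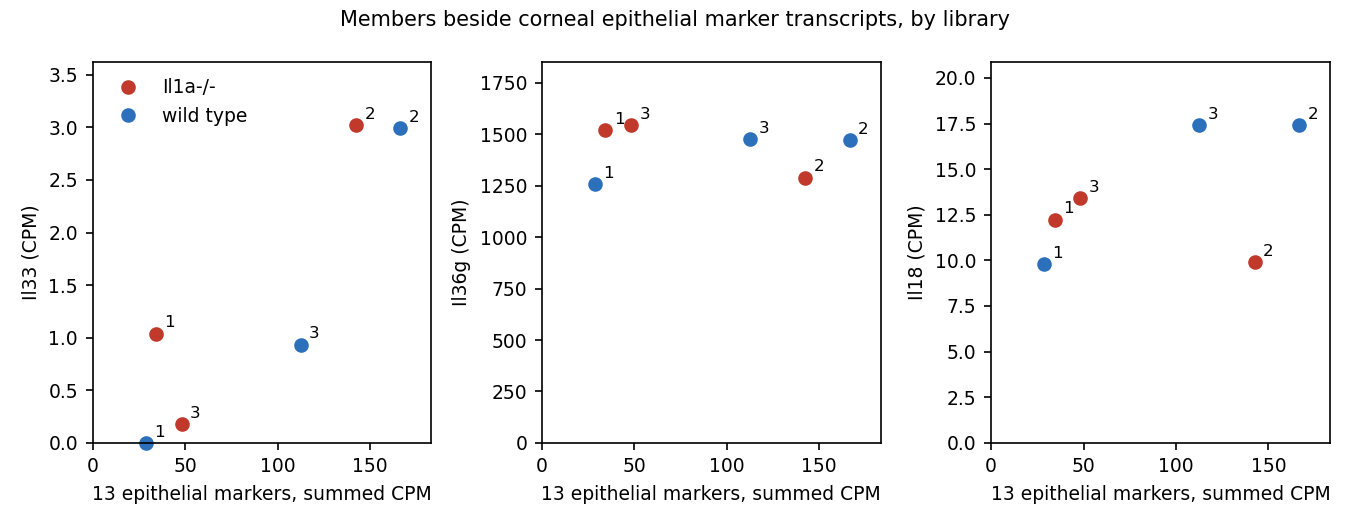
CPM of Il33, Il36g and Il18 against the summed CPM of 13 corneal epithelial markers in each library, with the replicate number beside each point. Il33 is near 3 CPM only in the library of each genotype with the most epithelial marker RNA, at 142 and 167 CPM, while Il36g is between 1259 and 1545 CPM throughout.

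Of the 7 members, all of which passed the filter on low counts, 1 was called, Il1a, against a background of 0.101% of 11924 tested genes called in either direction. For the 6 others, 0 passed in edgeR's quasi-likelihood test, 0 had an unadjusted p under 0.05, and 0 were called by DESeq2 or limma-voom. Over all 11924 tested genes, 714 had an unadjusted p under 0.05 in edgeR. The median log2 fold change of the 6 was -0.04, beside 0.0045 over all tested genes. Il1a was also the single member whose groups did not overlap in CPM, as was the case for 11.6% of tested genes. The precision differed between members: the 95% intervals of Il1b, Il1rn and Il36g all lay between -0.40 and 0.31 on the log2 scale, whereas that of Il33 ran from 0.146 to 8.07 times the wild-type level.

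**Figure D4:**
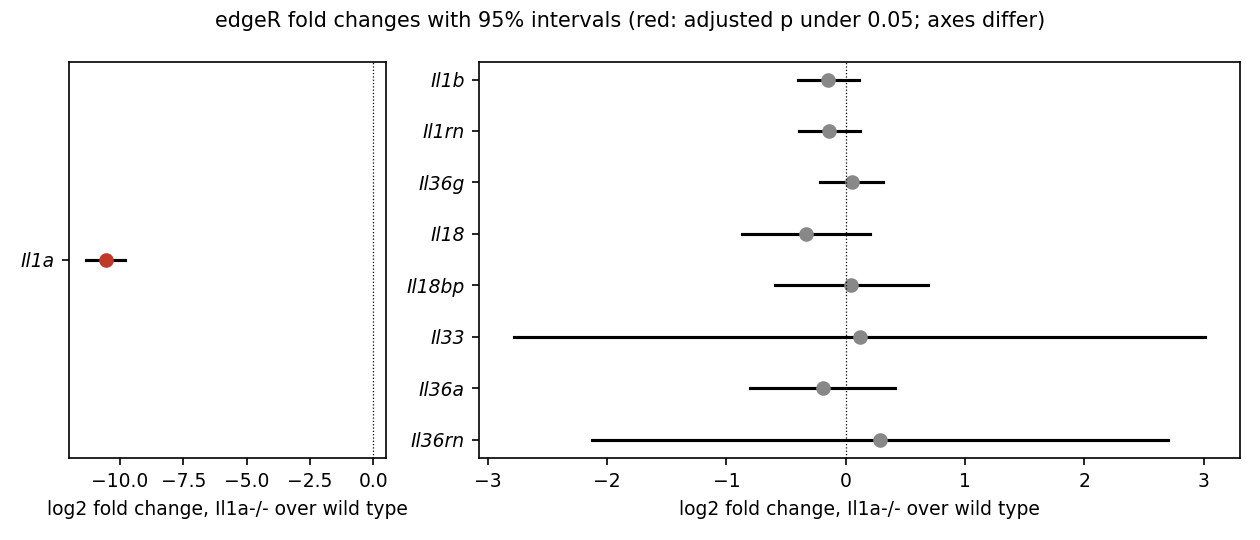
Log2 fold change, Il1a-/- over wild type, with its 95% interval from edgeR, for Il1a on the left and for the other members, Il36a and Il36rn on the right, on separate axes. Il1a is the single red point at -10.55, and every other interval holds 0, the widest being that of Il33 from -2.78 to 3.01.

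The balance of agonist to antagonist transcripts was then taken as a ratio within each library, which needs no scaling between libraries. Per exon length, Il1b exceeded Il1rn 2.83-, 3.31- and 3.27-fold in the Il1a-/- libraries, against 3.89-, 3.03- and 2.73-fold in wild type. The ratio was 3.14 ± 0.27 in Il1a-/- and 3.22 ± 0.61 in wild type (SD, n = 3 each). The groups overlapped, and the difference of -0.02 on the log2 scale was far smaller than their spread (exact two-sided permutation test over 3 against 3 libraries, p = 1, adjusted p = 1). With 3 libraries a group the smallest p such a test can give is 0.1. The size of the ratio rests on the length given to each gene: it was 2.04 ± 0.18 in Il1a-/- and 2.09 ± 0.39 in wild type per length of the longest transcript, and 1.08 ± 0.09 and 1.11 ± 0.21 as plain counts.

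With Il1a added to Il1b, the agonists of the IL-1 receptor exceeded the antagonist 2.83-, 3.31- and 3.27-fold in Il1a-/-, against 4.70-, 3.85- and 3.81-fold in wild type. Every Il1a-/- library was below every wild-type library, with a difference of -0.39 on the log2 scale, 0.763 times the wild-type ratio (exact permutation test, p = 0.1, the smallest it can give, and 0.3 adjusted over the 3 ratios tested). Il1a is the deleted gene, so this separation belongs to the check of the knockout, and with Il1b alone the difference was -0.02, as given above. In wild type Il1a was at 0.808, 0.825 and 1.08 times the level of Il1rn per length and at 0.208, 0.273 and 0.397 times that of Il1b. These sizes, too, rest on the length used: per longest transcript Il1a was at 0.373, 0.381 and 0.50 times Il1rn, below it in all 3 libraries, and the ratio of both agonists to Il1rn was 2.04 ± 0.18 in Il1a-/- and 2.50 ± 0.34 in wild type. Il1a was below Il1b in all 3 wild-type libraries, and replicate 3 had the highest Il1a level by both ratios.

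Il18 exceeded Il18bp 2.88-, 4.76- and 3.63-fold per length in Il1a-/-, against 3.20-, 4.21- and 7.03-fold in wild type. The groups overlapped, and the difference of -0.31 on the log2 scale did not pass (exact permutation test, p = 0.6, adjusted p = 0.9). It rests on wild-type replicate 3, without which the difference was 0.0026.

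**Figure D5:**
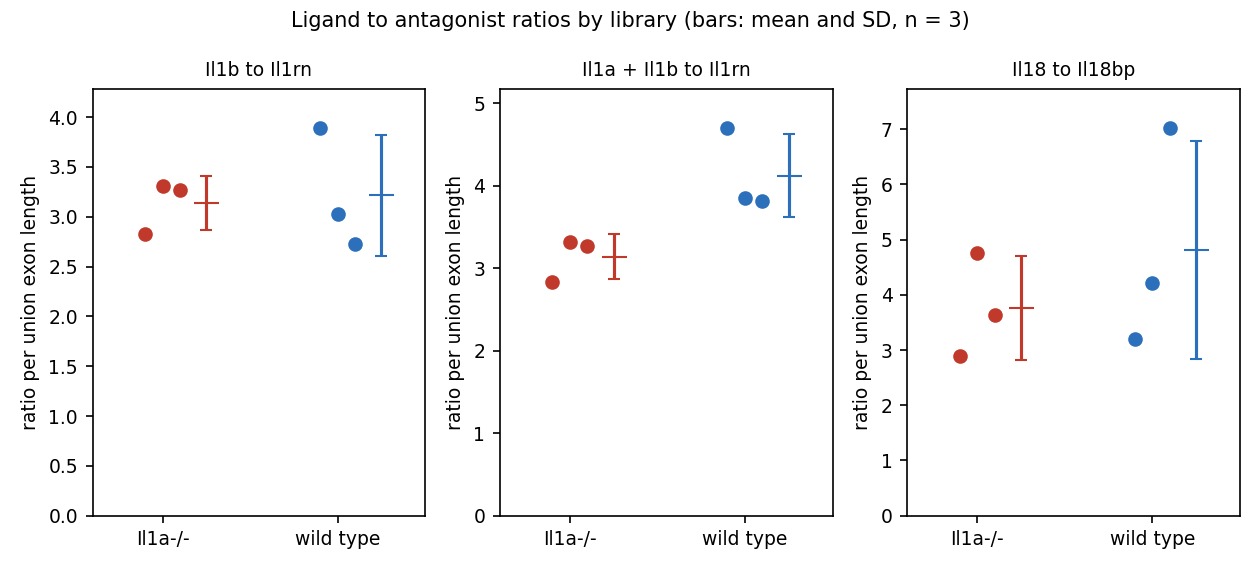
Ratio of transcript levels per exon length in each library, with mean and SD beside the points, for Il1b to Il1rn, Il1a plus Il1b to Il1rn, and Il18 to Il18bp, Il1a-/- left of wild type. The Il1a plus Il1b ratio is 2.83 to 3.31 in Il1a-/- and 3.81 to 4.70 in wild type, and the groups overlap in the other panels.

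Transcripts of the decoy receptor and of the shared coreceptor were found in every library. Il1r2, the decoy receptor gene, was at 1661 ± 292 CPM in Il1a-/- and 1726 ± 211 CPM in wild type (SD, n = 3 each), and Il1rap, the gene of the shared coreceptor, at 1173 ± 77 and 1348 ± 191 CPM. Il18rap, the coreceptor gene for IL-18, was at 159 ± 16 CPM in Il1a-/- and 159 ± 27 CPM in wild type. The signalling receptor gene Il1r1 was at 0.641 ± 0.575 CPM in Il1a-/- and 1.19 ± 0.42 CPM in wild type. Of 10 receptor genes 7 were tested, with a median log2 fold change of -0.20, beside 0.0045 over all tested genes. Of these 7, 0 were called by edgeR, DESeq2 or limma-voom and 0 had an unadjusted p under 0.05. Over all 11924 tested genes edgeR called 0.101%, and 714 had an unadjusted p under 0.05. With so few genes tested, the absence of calls says little about the receptors.

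Among 35 genes of cleavage, inflammasomes and release, 27 were tested and 0 were called by edgeR, DESeq2 or limma-voom, with 1 at an unadjusted p under 0.05 and a median log2 fold change of 0.02. Over all 11924 tested genes, 714 had such an unadjusted p in edgeR. Since edgeR called 0.101% of all tested genes, the absence of calls among 27 says little about these genes. Nlrp3, the sensor of the inflammasome that activates caspase-1, was at 3095 ± 148 CPM in Il1a-/- and 3275 ± 339 CPM in wild type (SD, n = 3 each). Ninj1, which ruptures the plasma membrane in lytic cell death, was at 1032 ± 31 and 977 ± 83 CPM, and Mefv, the gene of the sensor pyrin, at 809.6 ± 79.9 and 779.7 ± 53.1 CPM. Casp4, the caspase of the noncanonical pathway, was at 241 ± 36 CPM in Il1a-/- and 219 ± 20.4 CPM in wild type. Casp1, the gene of caspase-1 itself, was lower, at 26.3 ± 3.1 CPM in Il1a-/- and 24.4 ± 2.3 CPM in wild type. Casp8, whose product can also cut the IL-1 beta precursor, was at 45.7 ± 8.1 CPM in Il1a-/- and 48.4 ± 4.7 CPM in wild type. Of the granule serine proteases, Elane (neutrophil elastase) had no count in any Il1a-/- library and 0 to 2.86 CPM in wild type, Prtn3 (proteinase 3) was at 0 to 0.283 and 0.129 to 0.674 CPM, and Ctsg (cathepsin G) at 0 and 0 to 0.161 CPM. These transcript levels do not show how much of the proteases the cells held as protein. Pycard, which encodes the inflammasome adaptor ASC and is the gene with the unadjusted p, was named after its values were seen. It was at 7.13 ± 1.55 CPM in Il1a-/- and 4.21 ± 0.75 CPM in wild type (edgeR, adjusted p = 0.68).

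No gene of the downstream lists was called, as was the case for nearly all tested genes. Of all 11924 tested genes edgeR called 12 (0.101%), and 714 had an unadjusted p under 0.05 in edgeR. DESeq2 called 69 genes in all and limma-voom 12. The absence of calls in lists this short therefore says little about these genes. Of 22 IL-1 receptor signalling genes, all tested, 0 were called by edgeR, DESeq2 or limma-voom and 1, Tab3, had an unadjusted p under 0.05, with a median log2 fold change of -0.03. Tnfaip3, the gene of a feedback inhibitor of NF-kB, was at 4795 ± 461 CPM in Il1a-/- and 4768 ± 716 CPM in wild type (SD, n = 3 each). Irak2, a kinase gene of the receptor complex, was at 951 ± 52 and 966 ± 147 CPM, Irak3, its inhibitory relative, at 755 ± 18 and 813 ± 222 CPM, and the NF-kB subunit gene Nfkb1 at 615 ± 161 and 543 ± 97 CPM. Of 25 genes known to be induced by IL-1 or NF-kB, again 0 were called by edgeR, DESeq2 or limma-voom, with 3 at an unadjusted p under 0.05, and the median log2 fold change of the 25 was -0.0058, beside 0.0045 over all tested genes. Those 3, named like Tab3 after their values were seen, were Il6 (log2 fold change 1.06, adjusted p = 0.54 by edgeR), Ptges (0.38, adjusted p = 0.82) and Il10 (0.46, adjusted p = 0.78), and for Tab3 it was -0.47 (adjusted p = 0.79). The neutrophil-attracting chemokine gene Cxcl2 was at 23092 ± 4535 CPM in Il1a-/- and 24092 ± 1985 CPM in wild type, and its relative Cxcl3 at 10307 ± 1871 and 10513 ± 1115 CPM. Ccl3, a chemokine gene of the other class, was at 10869.6 ± 2106 CPM in Il1a-/- and 11137 ± 1667 CPM in wild type, and Ccl4 at 13909 ± 1634 and 16192 ± 2260.4 CPM.

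The genes whose pattern was most like that of a member were sought among 1851 genes that averaged 50 CPM or more. The measure was the root mean square difference, over the 6 libraries, of log2 CPM centred on each gene's mean. For Il1b they were Socs3 at 0.041, a feedback inhibitor of cytokine signalling, G0s2 at 0.056, an inhibitor of lipolysis, and the RNA helicase gene Ddx3x at 0.060, beside a median of 0.208 for all genes compared. For Il1rn they were Srpr at 0.024, the elongation factor gene Ell2 at 0.024 and Cd47 at 0.025, which encodes a signal against phagocytosis, beside a median of 0.169. For Il36g they were Gpr84 at 0.022, the gene of a fatty acid receptor, Cnppd1 at 0.041 and Pdcd6 at 0.049, beside a median of 0.178. Nothing was close to Il1a, whose nearest gene was its antisense neighbour Gm14023 at 3.86. These distances over 6 libraries are a description, and no test was made of them.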

How the data were processed

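Gene counts from 6 libraries of neutrophils sorted from infected corneas, 3 Il1a-/- and 3 wild type, were used. Per the labels' protocols, a column kit gave the RNA and a SMART-Seq v4 kit for low input, which does not mark strand, the libraries. Per the submitters' processing notes, FastQC 0.11.9, Trimmomatic 0.39 and STAR 2.7.8a processed the reads, with GRCm38 and mm10 named as builds; an annotation release was not stated there. What the authors deposited are raw whole-number counts per gene: an unstranded column, used for the main results, and columns by read strand. Symbols, exons and lengths came from GENCODE M21 (54809 of 54838 genes matched), with 4 IL-36 group symbols brought up to date by RefSeq synonyms. The filter of edgeR 4.0.16 by group left 11924 genes. TMM factors scaled the counts, and the robust quasi-likelihood test was applied (R 4.3.3, limma 3.58.1), Il1a-/- against wild type, with Benjamini-Hochberg adjustment over all genes and a threshold of 0.05. The procedure was tested on simulated data. Log2 CPM used a prior count of 3. TPM divided counts by union exon length. Ratios were tested by exact permutation. The alternatives were other scalings, filters, tests, count columns and lengths, a replicate term and each library left out. Reads carry no molecular tags, so depth sets counting error only. The members were picked by name, but they and the gene lists were chosen with earlier results of these data known. Named genes are the members and other family ligands, up to 3 genes most like each abundant member, overlapping genes, and the called and 4 most abundant genes of each list. Marker lists are given as sums, with S100a8 as their example and Lyz2, Csf1r, Pecam1 and Cd74 named as the largest parts of sums. Il1r1, Casp1, Casp8, Elane, Prtn3, Ctsg and 3 macrophage markers were named after their values were seen. Plots were made in matplotlib 3.10.9.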

Additional observations from a re-analysis of the deposited data

How the results depend on the processing

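Il1a was the only member called in each of 15 alternatives, with a log2 fold change between -10.73 and -9.30. The number of genes called, 12 in the main test, was 185 without a filter, 21 with a filter at 5 CPM in 3 libraries, 69 by DESeq2, and 7 to 24 with a library left out (24 without Il1a-/- replicate 1, and 7 without wild-type replicate 1 or 2). With the replicate number as a block it was 20, with Il1a again the single member. Whether the numbers pair the libraries was not settled. Same-numbered libraries correlated at 0.14, 0.057 and 0.0034 in their deviations from the group mean, and differently numbered ones at -0.19 to 0.14. Il1a-/- replicate 1 correlated best with wild-type replicate 1, but Il1a-/- replicate 2 with wild-type replicate 3 and Il1a-/- replicate 3 with wild-type replicate 1. Deviations within groups of 3 depend on one another, so these values cannot exclude a pairing. Leaving out each library moved the log2 fold change over -0.23 to -0.06 for Il1b, -0.24 to -0.06 for Il1rn, -0.037 to 0.12 for Il36g, -0.57 to -0.20 for Il18, -0.17 to 0.29 for Il18bp and -1.09 to 1.58 for Il33, so that Il36g, Il18bp and Il33 changed sign, and their adjusted p was 0.92 or more in each of these fits. The log2 difference in the ratio of Il1b to Il1rn ran from -0.13 to 0.12 with a library left out, that of Il18 to Il18bp from -0.56 to 0.0026, and that of Il1a plus Il1b to Il1rn from -0.44 to -0.29. With the sum of the strand columns 5 of 7 members kept their place in the order in each genotype, by construction, since that sum adds the shared reads to Il1a. By Pearson correlation 1 of the 3 nearest genes was shared with the main measure for Il1a and 1 for Il1rn; the cause was not tested. Il36b and Il1f10 had too few counts to pass the filter and were not tested.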
